A study of Mus musculus with 16 samples.

Results

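The genes described here are those of the CD3 chains of the T cell receptor complex and of other proteins that define T cells, namely Cd3d, Cd3e, Cd3g, Cd4, Cd8a, Lck, Il7r, Cd28, Icos and Foxp3. They were taken by symbol, and every probe set that the array annotation assigned to exactly 1 of these symbols was kept. That gave 14 probe sets of 9 genes, out of 22626 probe sets and 12393 genes in all. Cd4, Cd8a, Il7r, Cd28 and Icos had 2 probe sets each and the other 4 genes had 1 each. No probe set carried the symbol of Lck, the kinase bound to the co-receptors, and Lck was not analysed here.

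The left lungs of 16 mice were each measured on an Affymetrix expression array of their own. The 4 groups were adiponectin-deficient mice in ozone, adiponectin-deficient mice in air, wildtype mice in ozone and wildtype mice in air. Each group held 2 males and 2 females, called M1, M2, F1 and F2, with a mean age of 14 weeks over the study. Exposure was to 0.3 ppm ozone, an oxidant air pollutant, or to room air, for 72 h. The labels give C57BL/6 as the background of the wildtype mice and do not say which part of the Adipoq gene, which encodes the fat cell hormone adiponectin, was changed in the deficient mice. All cells of a lung were measured together, so that fewer T cells and less RNA per T cell cannot be told apart.

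A T cell recognises antigen with 2 variable chains that cannot signal by themselves. The CD3 chains carry the signal into the cell, CD4 or CD8 hold the receptor to the presenting molecule and bring Lck with them, and CD28 and ICOS add the second, costimulatory signal. The receptor for interleukin-7 keeps resting T cells alive, and its alpha chain, encoded by Il7r, is known to be lost from T cells after activation and is also found on innate lymphoid cells and on developing B cells. FOXP3 is the transcription factor of regulatory T cells. In the lung, T cells reside in the tissue, the airway wall and the blood that the organ still holds when it is taken.

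The promoters of the 3 CD3 genes and of Il7r are shown because these genes lie close together or had the clearest differences. The windows run from 250 bases before to 50 bases after the start of each gene, are those of RefSeq for GRCm38.p6, and are written 5′ to 3′ along the strand of the gene. They are chr9:44981536-44981835 on the plus strand for Cd3d, chr9:44980382-44980681 on the minus strand for Cd3g, chr9:45009562-45009861 on the minus strand for Cd3e and chr15:9529827-9530126 on the minus strand for Il7r. Capitals mark the ETS core GGAA and the RUNX core TGTGGT on either strand, so that TTCC is GGAA read from the other strand.
Cd3d: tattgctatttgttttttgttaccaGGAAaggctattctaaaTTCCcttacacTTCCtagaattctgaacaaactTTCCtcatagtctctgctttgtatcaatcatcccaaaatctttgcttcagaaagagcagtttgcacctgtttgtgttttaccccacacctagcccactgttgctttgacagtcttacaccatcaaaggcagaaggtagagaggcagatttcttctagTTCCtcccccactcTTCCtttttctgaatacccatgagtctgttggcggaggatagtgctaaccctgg
Cd3g: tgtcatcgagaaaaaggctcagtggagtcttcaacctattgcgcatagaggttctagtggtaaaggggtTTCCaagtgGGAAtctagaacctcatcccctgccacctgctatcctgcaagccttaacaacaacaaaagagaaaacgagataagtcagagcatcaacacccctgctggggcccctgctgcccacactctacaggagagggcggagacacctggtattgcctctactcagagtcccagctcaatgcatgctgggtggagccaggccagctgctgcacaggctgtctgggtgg
Cd3e: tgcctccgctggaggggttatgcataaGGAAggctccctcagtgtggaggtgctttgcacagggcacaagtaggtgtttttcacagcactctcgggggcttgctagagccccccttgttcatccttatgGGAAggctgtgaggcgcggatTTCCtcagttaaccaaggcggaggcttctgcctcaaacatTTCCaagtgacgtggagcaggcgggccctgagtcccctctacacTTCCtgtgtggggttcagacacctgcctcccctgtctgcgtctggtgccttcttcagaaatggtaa
Il7r: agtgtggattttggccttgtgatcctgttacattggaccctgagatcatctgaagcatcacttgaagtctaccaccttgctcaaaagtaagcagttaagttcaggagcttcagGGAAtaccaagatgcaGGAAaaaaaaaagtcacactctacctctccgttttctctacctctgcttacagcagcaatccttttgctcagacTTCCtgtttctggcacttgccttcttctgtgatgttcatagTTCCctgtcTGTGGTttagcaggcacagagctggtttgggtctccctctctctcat
Cd3d and Cd3g are neighbours that run in opposite directions, with starts 1355 bases apart and 854 bases between the windows. The window of Cd3e lies 27726 bases from that of Cd3d. The ETS core occurred 6 times in the window of Cd3d, 2 times in that of Cd3g, 5 times in that of Cd3e and 4 times in that of Il7r. It occurred in 96% of the 32851 windows in the table, with a median of 3. The RUNX core occurred 1 time, in the window of Il7r, and in 16.8% of all windows. The E-box CANNTG, read on both strands like the other motifs, occurred 1, 4, 2 and 3 times in the windows of Cd3d, Cd3g, Cd3e and Il7r in that order, and in 72.3% of all windows. The TATA box TATAAA was in none of the 4 windows and in 13.6% of all windows. These matches describe letters and do not show that a factor binds there.

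Several arrays stood apart. Adipoq itself was between 6.07 and 6.97 on the log2 scale on 7 of the 8 deficient arrays and at 8.82 on deficient air F2, against 7.19 to 11.5 on the wildtype arrays, so that deficient air F2 lay within the wildtype range. The mean log2 intensity of the 8 fat genes measured was 8.26 on deficient air F2 and 8.69 on wildtype air F1, against 6.15 to 6.82 on the other arrays, and deficient air M2 was highest for 10 muscle genes at 10.4. Results of the 14 probe sets whose call changed without these 3 air arrays are given with and without them. The genes of the lists further below are given with all arrays only. Wildtype ozone M2 was highest for 8 neutrophil genes, at 11.6 against at most 8.38 elsewhere, and wildtype ozone F1 was kept in the ozone group, which its title and exposure field give, although its free description names room air. Medians of the deposited intensities lay between 146 and 154 on all arrays. Values below are log2 intensities, differences are log2 ± SE of a limma fit over all arrays with sex as a term, and a called probe set is one with an adjusted p under 0.05 by the Benjamini-Hochberg method over all 22626 probe sets.

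Ozone was first compared with air within each genotype, which asks how 72 h of ozone changed the T cell genes of the lung. In deficient mice both probe sets of Il7r and 1 of Cd28 fell and Cd3g rose. In wildtype mice both probe sets of Il7r, both of Cd28 and Cd3d fell, and none rose. Of the 14 probe sets 4 were called in deficient mice, which is 28.6% against 29.3% of all probe sets. In wildtype mice 5 were called, which is 35.7% against 36.3% of all probe sets. Both shares are near those of the whole array, so the count by itself is no result about T cell genes, and the values of the single genes are given below. The median difference of the 14 probe sets was 0.0081 in deficient mice and -0.094 in wildtype mice, against 0.0022 and 0.016 over all probe sets.

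**Figure D1:**
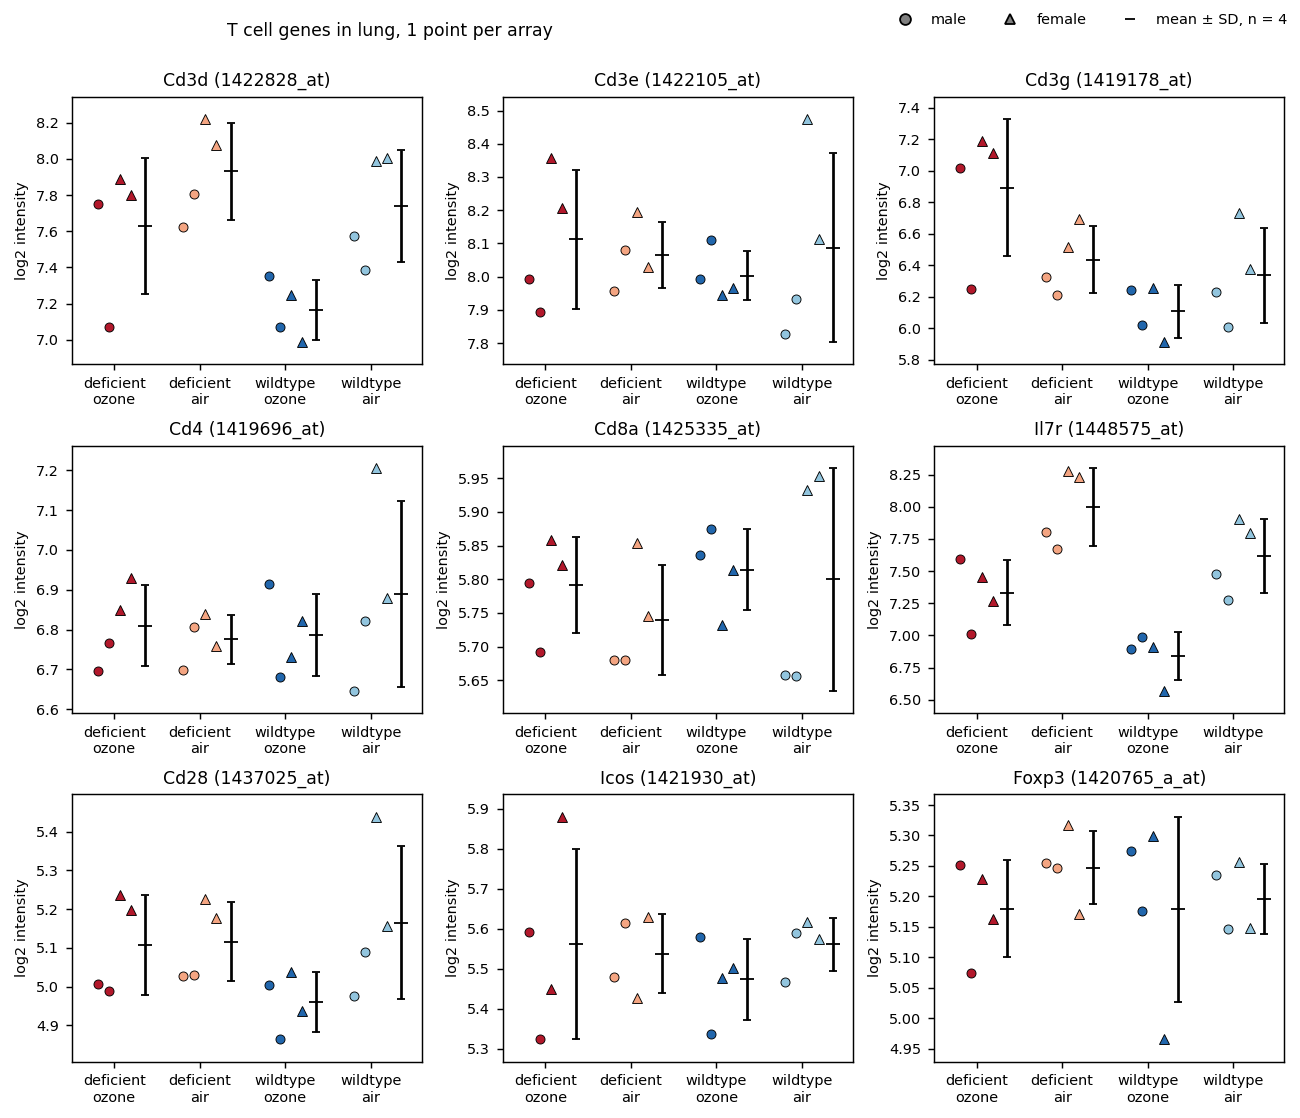
Log2 intensity of the 9 genes on each array, with the probe set of highest mean for each gene. Circles are males, triangles females, and bars the mean ± SD of the 4 arrays of a group, with separate axes per gene. Il7r was lower on every ozone array than on every air array of the same genotype, Cd3g was at 7.02 to 7.19 on 3 deficient ozone arrays and at 6.25 on the fourth, and Cd3e, Cd4, Cd8a and Foxp3 overlapped between all groups.

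Il7r, the alpha chain of the interleukin-7 receptor, gave the largest differences between ozone and air among the 14 probe sets. Its probe set 1448575_at read 7.59, 7.01, 7.45 and 7.27 on deficient ozone M1, M2, F1 and F2, against 7.80, 7.67, 8.28 and 8.23 on the same numbers in deficient air. It read 6.90, 6.99, 6.91 and 6.57 in wildtype ozone, against 7.48, 7.28, 7.90 and 7.80 in wildtype air. In both genotypes every ozone array was below every air array. The difference was -0.66 ± 0.15 in deficient mice (1.58-fold lower, limma adjusted p = 0.00401) and -0.77 ± 0.15 in wildtype mice (1.71-fold lower, limma adjusted p = 0.0012). The second probe set, 1448576_at, read 6.33, 6.15, 6.16 and 6.14 in deficient ozone against 6.61, 6.72, 6.87 and 7.36 in deficient air, and 5.91, 6.25, 6.06 and 5.70 in wildtype ozone against 6.52, 6.42, 6.84 and 6.55 in wildtype air. Again no ozone array reached an air array of its genotype, with differences of -0.69 ± 0.14 (adjusted p = 0.00213) and -0.60 ± 0.14 (adjusted p = 0.00494). Without the 3 air arrays named above 1448575_at differed by -0.71 in deficient mice (adjusted p = 0.0141) and by -0.70 in wildtype mice (adjusted p = 0.00607).

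Within a genotype the fall of Il7r was called in females alone, with 2 mice per group, and missed the threshold in males alone. For 1448575_at it was -0.89 in deficient females (adjusted p = 0.00283) and -1.11 in wildtype females (adjusted p = 0.00142). In males it was -0.44 in both genotypes, with adjusted p = 0.163 in deficient and 0.108 in wildtype mice. Averaged over both genotypes it was called in males alone too, at -0.44 for 1448575_at (adjusted p = 0.0321) and -0.40 for 1448576_at (adjusted p = 0.0124). Whether the sexes differ in the response was not tested. No Il7r call was lost when any single array was left out, wildtype ozone M2 and F1 included.

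Of the CD3 chains, which form the signalling part of the receptor, Cd3d fell in wildtype mice. It read 7.35, 7.07, 7.25 and 6.99 in wildtype ozone M1, M2, F1 and F2 against 7.57, 7.38, 7.99 and 8.003 in wildtype air, a difference of -0.57 ± 0.15 (1.49-fold, limma adjusted p = 0.00693), and the groups did not overlap. In deficient mice Cd3d read 7.75, 7.07, 7.89 and 7.80 in ozone against 7.62, 7.80, 8.22 and 8.08 in air. Those groups overlapped, and the difference of -0.30 ± 0.15 did not pass (adjusted p = 0.139). Without deficient ozone M2 it was -0.16 (adjusted p = 0.431). In wildtype males alone the difference was -0.27 (adjusted p = 0.379), against -0.88 in wildtype females alone (adjusted p = 0.00242). The call in wildtype mice held without any single array.

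Cd3g, the gene next to Cd3d, did not show that pattern. It read 7.02, 6.25, 7.19 and 7.11 in deficient ozone M1, M2, F1 and F2, against 6.32, 6.21, 6.52 and 6.69 in deficient air. It rose by 0.46 ± 0.16 in deficient mice (1.37-fold, limma adjusted p = 0.0388), with deficient ozone M2 inside the range of the air group. This call was lost when any 1 of 7 of the 8 deficient arrays was left out, the exception being deficient ozone M2, and without the 3 air arrays (0.47, adjusted p = 0.0995). Over all alternatives the difference lay between 0.35 and 0.63 and the adjusted p between 0.00245 and 0.35. In wildtype mice Cd3g read 6.24, 6.02, 6.25 and 5.91 in ozone against 6.23, 6.01, 6.73 and 6.37 in air, with a difference of -0.23 ± 0.16 that did not pass (adjusted p = 0.272).

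Cd3e, the third chain, stayed within the spread of its groups. It averaged 8.11 ± 0.21 in deficient ozone and 8.06 ± 0.10 in deficient air, and 8.003 ± 0.07 in wildtype ozone and 8.09 ± 0.28 in wildtype air (SD, n = 4 each). The highest value, 8.47, was that of wildtype air F1, an array with fat markers. The ozone difference was 0.05 with a 95% interval from -0.18 to 0.27 in deficient mice and -0.08 with an interval from -0.31 to 0.14 in wildtype mice. A change of the size that Il7r showed lies outside both intervals.

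The co-receptors Cd4, which marks helper T cells, and Cd8a, which marks cytotoxic T cells, had no probe set called for ozone in either genotype. Cd4 1419696_at lay between 6.65 and 7.21 over all 16 arrays and Cd4 1427779_a_at between 5.04 and 5.45. Their ozone differences were 0.03 and -0.05 in deficient mice and -0.10 and 0.14 in wildtype mice, with limma adjusted p between 0.123 and 0.808. Cd4 1427779_a_at became called as higher in wildtype ozone without the 3 air arrays (0.20, adjusted p = 0.0396), in males alone (0.29, adjusted p = 0.0488), without wildtype air F1 (adjusted p = 0.0369) and without wildtype ozone F2 (adjusted p = 0.0485). The 2 probe sets of Cd4 thus differed in sign within each genotype. Cd8a 1425335_at lay between 5.66 and 5.95 and Cd8a 1451673_at between 5.04 and 5.42, with ozone differences from 0.002 to 0.06 in the 2 genotypes. Cd8b1, the second chain of CD8, fell by 0.48 in wildtype mice (adjusted p = 0.0227) and was 0.39 lower in deficient mice without passing (adjusted p = 0.0694). Cd8b1 is also among the thymus genes counted further below, whose sums were highest on the 3 air arrays. Its values are given with all arrays only, and the part of those 3 in them was not tested.

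Cd28, the costimulatory receptor for CD80 and CD86, was lower in ozone by both of its probe sets in wildtype mice. Both were among the dimmest 20% of all probe sets by mean, which none of the Il7r and CD3 probe sets was. Its probe set 1417597_at read 4.90, 4.50, 4.80 and 4.75 in deficient ozone M1, M2, F1 and F2 against 4.98, 4.98, 5.27 and 5.18 in deficient air. In wildtype mice it read 4.71, 4.67, 4.55 and 4.48 in ozone against 4.86, 4.71, 5.42 and 5.16 in air. No ozone array reached an air array of its genotype, though in wildtype mice the nearest 2 arrays differed by less than 0.01. The differences were -0.37 ± 0.12 in deficient mice (limma adjusted p = 0.0304) and -0.43 ± 0.12 in wildtype mice (limma adjusted p = 0.0106). Without the 3 air arrays with markers of other tissues both missed the threshold, at -0.39 and -0.32 with adjusted p = 0.0506 in each case. The call in deficient mice was lost in 10 of 27 alternatives, among them leaving out any 1 of 6 of the 8 deficient arrays (adjusted p between 0.0523 and 0.0949). In wildtype males alone the difference was -0.10 (adjusted p = 0.61), against -0.77 in wildtype females alone (adjusted p = 0.00372).

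The other Cd28 probe set, 1437025_at, read 5.01, 4.99, 5.24 and 5.20 in deficient ozone against 5.03, 5.03, 5.23 and 5.18 in deficient air, a difference of -0.01 ± 0.07 (adjusted p = 0.946). It read 5.003, 4.86, 5.04 and 4.94 in wildtype ozone against 4.98, 5.09, 5.44 and 5.16 in wildtype air. The groups overlapped and the difference of -0.21 ± 0.07 passed (adjusted p = 0.0288), but the call was lost without any of 5 of the 8 wildtype arrays and without the 3 air arrays (-0.14, adjusted p = 0.127). The 2 probe sets of Cd28 therefore disagreed in deficient mice.

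Icos, the receptor for the ICOS ligand, and Foxp3 had no probe set called in either genotype. Icos 1421931_at averaged 5.06 ± 0.20 in deficient ozone against 4.90 ± 0.14 in deficient air, and 5.02 ± 0.12 in wildtype ozone against 4.89 ± 0.13 in wildtype air. It differed by 0.17 ± 0.08 (adjusted p = 0.12) and 0.12 ± 0.08 (adjusted p = 0.226). The other Icos probe set, 1421930_at, lay between 5.33 and 5.88 on the 16 arrays, with its highest value on deficient ozone F2. Foxp3 lay between 4.97 and 5.32, with differences of -0.07 ± 0.07 in deficient mice and -0.02 ± 0.07 in wildtype mice. No detection calls were used, so it is not known how far the signal of any of the 14 probe sets stood above that of an absent transcript.

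Averaged over both genotypes, ozone lowered both Il7r probe sets, Cd3d and Cd28 1417597_at, and raised Icos 1421931_at. That is 5 of 14, against 48.3% of all probe sets. Il7r differed by -0.72 ± 0.11 (limma adjusted p = 6.26e-05) and -0.65 ± 0.10 (0.000105), Cd3d by -0.44 ± 0.10 (0.00271), Cd28 by -0.40 ± 0.08 (0.00114) and Icos by 0.15 ± 0.05 (0.0384). This comparison uses the same arrays as those within each genotype and adds no independent samples. The Icos call was lost in 15 of 26 alternatives, one of them without the 3 air arrays (adjusted p = 0.106), with adjusted p between 0.00694 and 0.369. Icos 1421931_at was, like Cd28 1417597_at, among the dimmest 20% of all probe sets by mean.

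**Figure D2:**
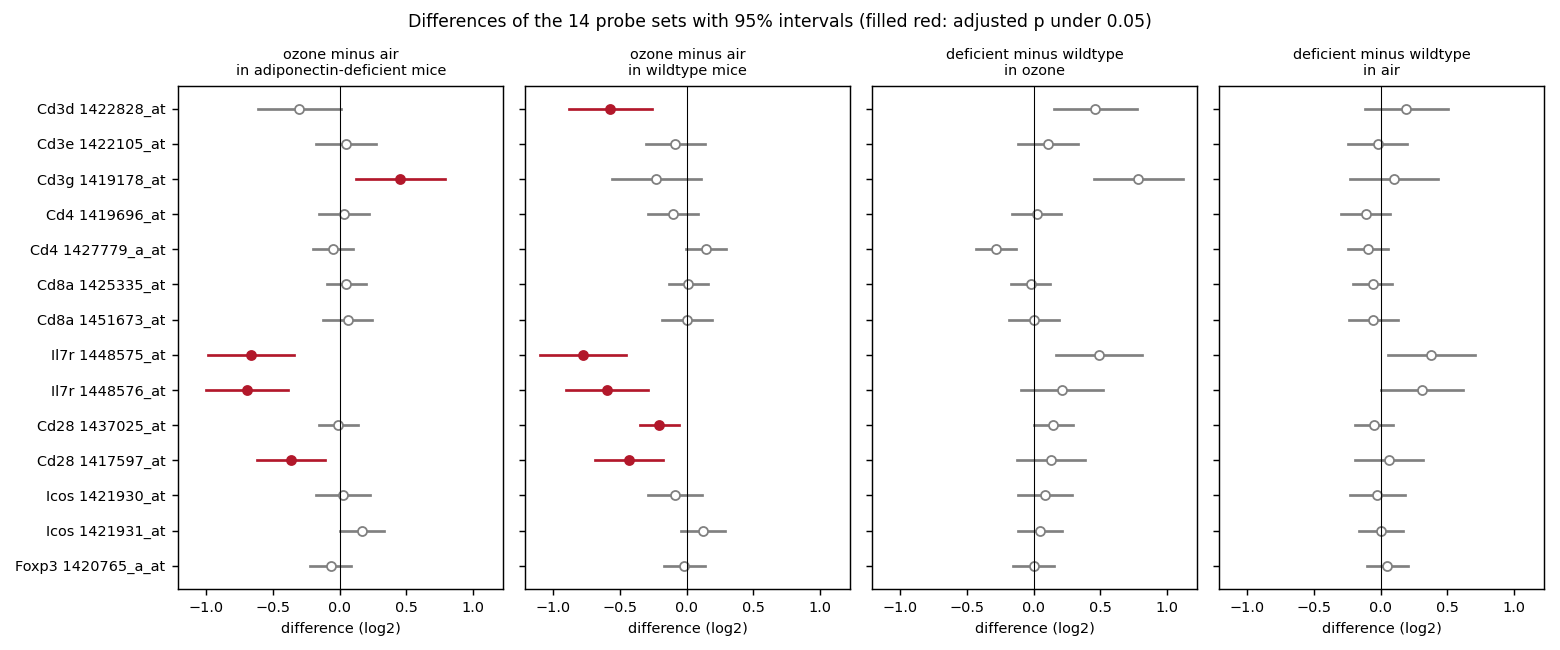
Differences on the log2 scale with 95% intervals of the limma fit for all 14 probe sets in 4 comparisons; filled red points were called at an adjusted p under 0.05. Il7r lies below 0 in both ozone comparisons, Cd3g lies at 0.46 in deficient mice and -0.23 in wildtype mice, and no probe set was called between the genotypes.

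Deficient mice were then compared with wildtype mice under the same exposure, which asks whether adiponectin deficiency altered these genes. In ozone, 0 of the 14 probe sets were called by limma, with 5 at an unadjusted p under 0.05. Of all probe sets 0.0133% were called, and 10.9% had an unadjusted p under 0.05. Cd3g differed by 0.79 ± 0.16, a 1.72-fold higher mean in deficient mice, with an unadjusted p of 0.000151 and an adjusted p of 0.118. All deficient ozone arrays but M2 were above all wildtype ozone arrays, and without deficient ozone M2 the difference was 0.96 with an adjusted p of 0.0197. The other alternatives gave an adjusted p over the threshold for Cd3g, up to 0.375.

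Il7r 1448575_at was 0.49 ± 0.15 higher in deficient than in wildtype ozone mice with no overlap of the groups (limma adjusted p = 0.295). The nearest arrays were deficient ozone M2 at 7.01 and wildtype ozone M2 at 6.99. Il7r 1448576_at was 0.21 ± 0.14 higher (adjusted p = 0.623), and its groups overlapped. Cd3d differed by 0.46 ± 0.15 (adjusted p = 0.297). Cd4 1427779_a_at read 5.04, 5.09, 5.04 and 5.14 in deficient ozone M1, M2, F1 and F2, against 5.43, 5.45, 5.35 and 5.22 in wildtype ozone. All 4 deficient arrays were below all 4 wildtype arrays, and the difference of -0.28 ± 0.07 did not pass (adjusted p = 0.2). The other Cd4 probe set differed by 0.02. None of these values passed the threshold, and an adjusted p over it does not show that the genotypes were alike.

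In air, 0 of 14 probe sets were called by limma, against 0.00884% of all probe sets. The 2 with an unadjusted p under 0.05 were both of Il7r, at 0.38 ± 0.15 and 0.31 ± 0.14 higher in deficient mice (limma adjusted p = 0.673 and 0.718). Of all probe sets 6.91% had an unadjusted p under 0.05. Cd3g differed by 0.10 ± 0.16 and Cd3e by -0.02 ± 0.10. The order of the Il7r 1448575_at means was 7.997 ± 0.31 in deficient air, 7.62 ± 0.29 in wildtype air, 7.33 ± 0.25 in deficient ozone and 6.84 ± 0.18 in wildtype ozone (SD, n = 4 each). Of these neighbours, deficient air overlapped wildtype air, wildtype air overlapped deficient ozone, and deficient ozone did not overlap wildtype ozone.

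The ozone difference in deficient mice minus that in wildtype mice was tested as an interaction. It called 0 of 14 probe sets and 0% of all probe sets at the adjusted threshold. Of the 14, 1 had an unadjusted p under 0.05, against 4.95% of all probe sets. That was Cd3g, with a difference of 0.68 ± 0.22 between the ozone effects, a 95% interval from 0.21 to 1.16 and an adjusted p of 0.974. For Cd3d the difference was 0.27 ± 0.21, with an interval from -0.17 to 0.71. The fall of Cd3d in wildtype mice and the rise of Cd3g in deficient mice are therefore not shown to be particular to a genotype. For Il7r the 2 probe sets gave 0.11 ± 0.21 and -0.10 ± 0.20, with intervals from -0.35 to 0.57 and from -0.53 to 0.34.

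Female mice were set against male mice over all groups. Cd28 1437025_at was 0.18 ± 0.05 higher in females (limma adjusted p = 0.0326) and Icos 1421931_at was 0.20 ± 0.05 higher (adjusted p = 0.0351). These were 2 of 14, against 9.18% of all probe sets, and each call was lost without any of several single arrays. Both probe sets were among the dimmest 20% by mean. Without the 3 air arrays neither was called, at 0.14 for Cd28 (limma adjusted p = 0.1) and 0.17 for Icos (limma adjusted p = 0.138). Cd3d averaged 7.78 ± 0.43 in females and 7.45 ± 0.28 in males (SD, n = 8 each), a difference of 0.32 ± 0.10 that did not pass (limma adjusted p = 0.0644). Cd3g differed by 0.31 ± 0.11 (adjusted p = 0.0951) and Cd3e by 0.19 ± 0.07 (adjusted p = 0.132). The females included both arrays with fat markers, and the part of these in the values was not tested.

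Other genes of T cell signalling were counted with 1 probe set per gene, the one of highest mean. Over all 12393 genes, 15.6% rose and 14.5% fell in deficient mice, and 19.5% rose and 17% fell in wildtype mice. Of 24 genes of receptor chains and of signalling close to the receptor, 2 rose and 2 fell in deficient mice, with a median difference of -0.0044. In wildtype mice 3 rose and 6 fell, with a median of -0.079. Lat, the adaptor on which the signal assembles, fell by 0.31 in wildtype mice (limma adjusted p = 0.0168) and differed by -0.02 in deficient mice. Prkcq, a kinase of the T cell synapse, fell by 0.32 in wildtype mice (adjusted p = 0.0038), and Txk, a Tec family kinase, fell by 0.33 (adjusted p = 0.0123). Ptprc, the CD45 phosphatase of all leukocytes, fell by 0.73 in wildtype mice (adjusted p = 0.0311), while Csk, the kinase that holds Lck in check and is found in most cells, rose by 0.53 in deficient and 0.39 in wildtype mice. Zap70, the kinase that binds the CD3 chains, differed by 0.002 and 0.03, and Cd247, the zeta chain, by 0.10 in deficient and -0.31 in wildtype mice (adjusted p = 0.583 and 0.0599). None of the 24 genes passed the interaction test, so the falls in wildtype mice are not shown to be particular to that genotype.

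Of 23 further surface genes of T cells, 1 rose and 2 fell in deficient mice, and 1 rose and 8 fell in wildtype mice. Their medians were -0.00072 and -0.11. Cd2, an adhesion receptor of T and NK cells, fell by 0.51 in deficient mice (limma adjusted p = 0.0486) and by 0.66 in wildtype mice (adjusted p = 0.0112). Slamf1 fell by 0.56 and 0.29, and Tnfrsf9, the 4-1BB receptor that activated T cells carry, rose by 0.47 and 0.34. Ltb, a lymphotoxin chain, fell by 0.77 in wildtype mice, Cd48 by 0.53 and Cd5, an inhibitor of receptor signalling, by 0.39, with values of -0.25, -0.03 and -0.10 in deficient mice that did not pass. None of these genes passed the interaction test, so the larger count in wildtype mice is not shown to be a difference between the genotypes.

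Around Cd28 and Icos, 3 of 15 receptors, ligands and adaptors rose and 1 fell in deficient mice, and 4 rose and 3 fell in wildtype mice. Cd80 and Cd86, the ligands of CD28, differed by 0.10 and -0.03 in deficient mice and by 0.17 and -0.06 in wildtype mice, and none passed. Icosl, the ligand of ICOS, fell by 0.27 in wildtype mice (limma adjusted p = 0.0248) and differed by -0.07 in deficient mice. Tnfsf9, the ligand of 4-1BB, rose by 0.71 and 0.86, and Cd276, a B7 family member, by 0.67 and 0.53 in deficient and wildtype mice in that order. Ctla4, which competes with CD28, differed by -0.02 and -0.05.

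Around Il7r, 4 of 19 genes of interleukin-7 and related cytokine signalling rose and 2 fell in deficient mice, and 4 rose and 4 fell in wildtype mice. Il7, the ligand, differed by -0.10 and -0.18 and did not pass in either genotype. Tslp, an epithelial cytokine whose receptor also contains the IL7R alpha chain, fell by 0.49 in deficient mice (limma adjusted p = 0.00159) and by 0.60 in wildtype mice (adjusted p = 0.000284). Bcl2, the survival protein that interleukin-7 maintains in T cells, fell by 0.34 and 0.29. Jak3, the kinase on the common gamma chain, rose by 0.77 and 0.57, Il4ra by 0.67 and 0.62, and the inhibitors Socs3 and Socs1 rose by 1.18 and 0.61 in deficient mice and by 0.96 and 0.41 in wildtype mice. Jak1, Stat5a and Stat5b, which carry the signal of the receptor, did not pass in either genotype.

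Among 25 transcription factors of T cells, 2 rose and 3 fell in deficient mice and 2 rose and 7 fell in wildtype mice. Bach2, which holds T and B cells in a resting state, fell by 0.92 in deficient mice (limma adjusted p = 0.000637) and by 1.23 in wildtype mice (adjusted p = 6.21e-05). Foxo1, which activates Il7r in T cells, fell by 0.41 and 0.58, and Prdm1 by 0.60 and 0.69. Gata3, of helper type 2 cells and innate lymphoid cells, fell by 0.49 in wildtype mice and differed by -0.08 in deficient mice. Of 15 genes of regulatory T cells, 1 rose in deficient mice and 3 in wildtype mice, with Capg at 0.61 and 0.46. Capg is an actin capping protein that macrophages also make.

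Of 12 T cell cytokines, 1 rose in deficient mice and 2 in wildtype mice, and none fell. Tgfb1, which many lung cells express, rose by 0.67 and 0.53, and Il4 rose by 0.21 in wildtype mice and differed by 0.04 in deficient mice. Ifng, Il5, Il13 and Il17a, the cytokines of type 1, type 2 and type 17 responses, did not pass in either genotype. Of 22 homing genes, 4 rose and none fell in deficient mice, and 5 rose and 2 fell in wildtype mice. The chemokines that rose were Ccl17, by 2.00 and 1.74, Ccl22, by 1.14 and 0.65, Cxcl16, by 0.64 and 0.59, and Cxcl10, by 0.56 and 0.44 in deficient and wildtype mice in that order. None of their receptors was called higher. Ccr4, for CCL17 and CCL22, differed by 0.19 and 0.01, Cxcr6, for CXCL16, by -0.05 and -0.16, and Cxcr3, for CXCL10, was 0.25 lower in deficient mice without passing and fell by 0.36 in wildtype mice (limma adjusted p = 0.0339).

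**Figure D3:**
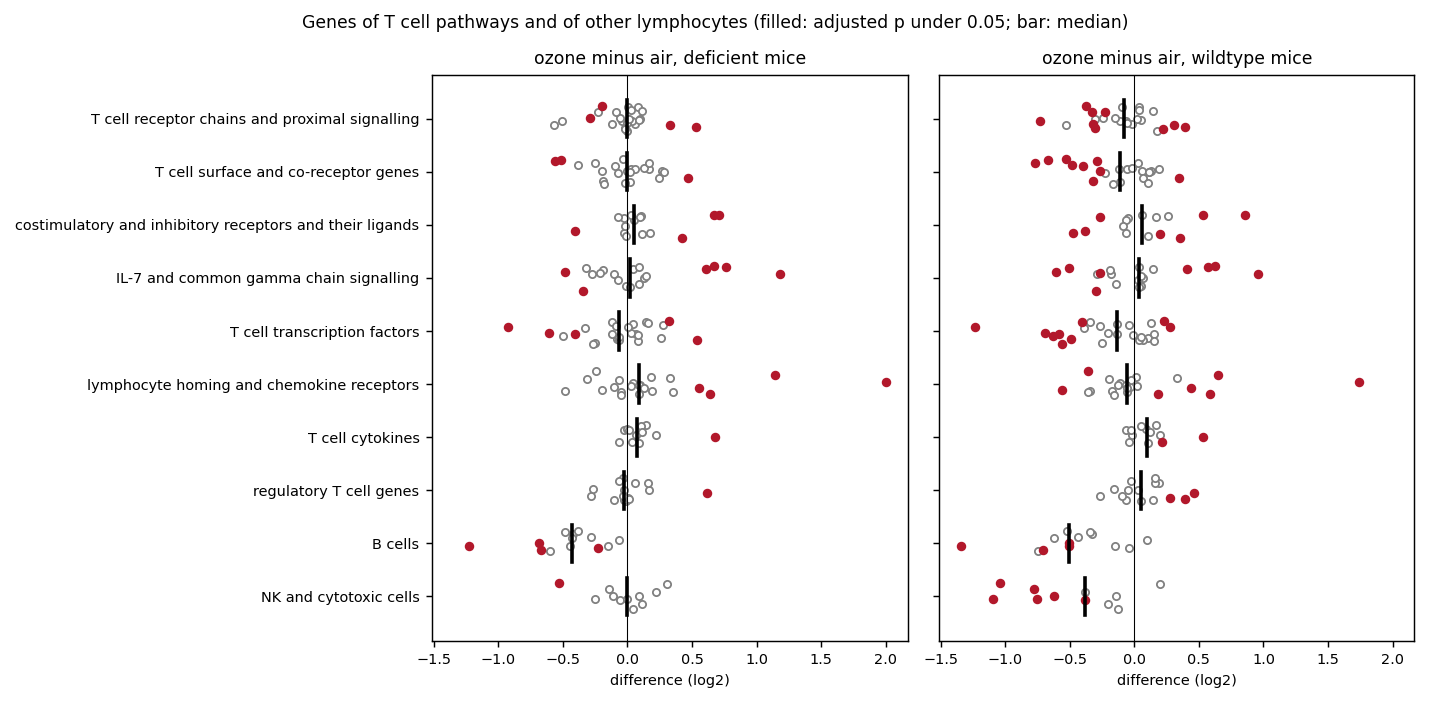
Log2 differences between ozone and air for each measured gene of 8 T cell lists and of B cell and NK cell markers, in deficient mice on the left and wildtype mice on the right. Filled points were called, open points were not, bars are medians, and the vertical scatter has no meaning. B cell genes have a median of -0.43 and -0.51, and NK genes of -0.0026 and -0.38.

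Markers of other lymphocytes are given beside these values. Of 13 B cell genes, 4 fell and none rose in each genotype, with a median of -0.43 in deficient and -0.51 in wildtype mice. Their summed intensity was 1581 to 2908 in deficient ozone against 2478 to 3569 in deficient air, and 1502 to 2143 in wildtype ozone against 2319 to 4219 in wildtype air, the highest being wildtype air F1. Ms4a1, the gene of CD20, differed by -1.23 in deficient and -1.34 in wildtype mice, and both were called. Of 11 genes of NK and cytotoxic cells, 1 fell in deficient mice and 6 in wildtype mice, where Gzma fell by 1.10, Klrd1 by 1.04 and Prf1 by 0.76. The counts are not shown to differ between the genotypes, since none of these 11 genes passed the interaction test. Their summed intensity was 3012 to 4176 in deficient ozone against 2721 to 3955 in deficient air, and 2044 to 5819 in wildtype ozone against 3084 to 4129 in wildtype air. The value of 5819 was that of wildtype ozone M2, and the other 3 wildtype ozone arrays, at 2044 to 3000, were below all wildtype air arrays. Of 7 genes of innate type 2 lymphoid cells, which also carry the IL7R alpha chain, none was called in deficient mice and Gata3 alone fell in wildtype mice.

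Genes of dividing cells moved the other way. All 11 rose in both genotypes, with medians of 2.67 and 2.42, and their mean log2 intensity was 9.04 to 9.45 in deficient ozone against 6.97 to 7.02 in deficient air. Of 9 thymus genes, 1 fell in deficient mice, and 3 rose and 1 fell in wildtype mice. Their summed intensity was 639 to 793 in deficient ozone against 786 to 1358 in deficient air, and 668 to 752 in wildtype ozone against 715 to 1133 in wildtype air. The highest sums were 1358 on deficient air M2, 1248 on deficient air F2 and 1133 on wildtype air F1, against at most 917 elsewhere. These are the 3 air arrays with markers of other tissues. Of 7 lymph node genes, 1 rose in deficient mice, and 1 rose and 1 fell in wildtype mice. Their summed intensity was 709 to 876 against 661 to 1019 in deficient mice and 607 to 696 against 629 to 1029 in wildtype mice, with the highest values on wildtype air F1 and deficient air F2. No marker was at 0, since every probe set of the deposited table has a positive value. The part of other cells in the T cell values was not tested.

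**Figure D4:**
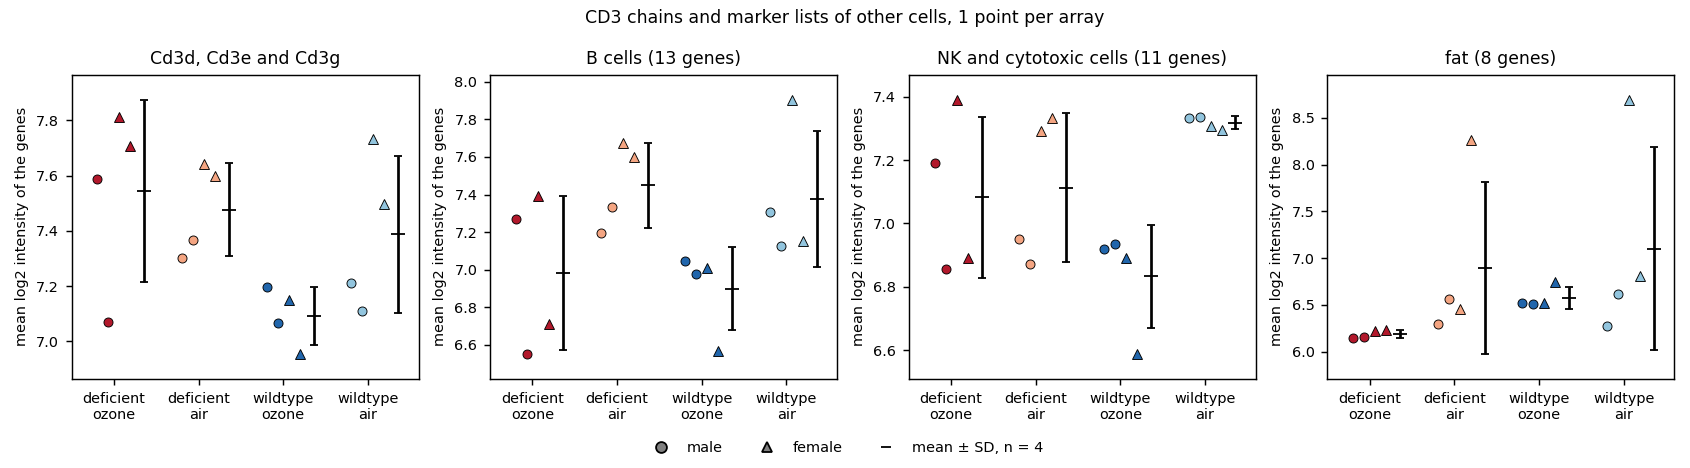
Mean log2 intensity per array of the 3 CD3 genes, of 13 B cell genes, of 11 NK and cytotoxic genes and of 8 fat genes. Circles are males, triangles females, and bars the mean ± SD of 4 arrays. The CD3 mean was 6.96 to 7.20 on the wildtype ozone arrays and 7.07 to 7.81 on the deficient ozone arrays, and the fat genes were high on wildtype air F1 and deficient air F2.

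Over the 16 arrays the members fell into no single pattern. Cd3d followed Il7r (Pearson r = 0.91, and 0.79 after group means and sex were taken out), while Cd3e followed Cd28 (r = 0.79) and Cd4 (r = 0.75), and Cd4 followed Il7r weakly (r = 0.16). Genes with 2 probe sets entered by the one of highest mean. Wildtype air F1, an array with fat markers, was highest for Cd3e, Cd28 and Cd4, at 8.47, 5.44 and 7.21. The part of this array in these r values was not tested. Cd3d and Cd3g had r = 0.65, and 0.85 after group means and sex were taken out, although the group means of the 2 genes differed in order. Arrays thus tended to deviate in the same direction for both from their group means and a sex difference common to all groups. A sex difference that varied between the groups stayed in these deviations. This did not hold in deficient air, where in each sex the array higher for Cd3d was lower for Cd3g. Wildtype air females also went opposite ways, with F1 and F2 at 7.99 and 8.003 for Cd3d and at 6.73 and 6.37 for Cd3g. Foxp3 had r between 0.02 and 0.49 with the other members, and with group means and sex taken out 0.72 with Cd3d, 0.73 with Cd3g and 0.62 with Il7r. Deficient ozone M2 was the lowest array of its group for Cd3d, Cd3g and Foxp3, at 7.07, 6.25 and 5.07. The part of that array in the r values among these genes was not tested. All r values describe 16 arrays that share groups, sexes and normalization.

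The genes most like the mean of Cd3d, Cd3e and Cd3g over the 16 arrays were Lat (Pearson r = 0.94), the receptor segments Trav9d-3 (0.92) and Trbv1 (0.91), Cd247 (0.89), Tmem229b (0.89), Cd5 (0.86), Itgb7 (0.86), Spns2 (0.85), Ptpn18 (0.85) and Gimap3 (0.83). Lat, Cd247 and Cd5 are T cell genes by textbook knowledge, and the variable segments belong to the T cell receptor itself. Such segments have near-identical copies, so which of them a probe set measured is uncertain. With group means and sex taken out, the 10 highest were Esyt1 (0.91), Ptprcap (0.89), Haao (0.88), Otulin (0.87), Fcho1 (0.86), Ntn4 (0.86), Lat (0.85), Dapp1 (0.85), Ghdc (0.85) and Itgb7 (0.85). Lat and Itgb7 stood in both groups of 10. The order was taken over all 12393 genes, and the points share arrays, groups and normalization.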

How the data were processed

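Left lung RNA of 16 mice was measured on 1 array each, per the labels. The deposited table holds an intensity for each probe set on each array. Per the submitters' processing notes the authors made it with RMA, which subtracts background, brings the arrays to one distribution and combines the probes of each set. The version used was not given in the sources used here. Its intensity values, as deposited, were linear, although RMA usually gives log2 values, and were turned to log2 here. This normalization hides any shift shared by all transcripts, the number of arrays limits the precision, and no detection calls were used.

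Of 22690 probe sets, 64 controls were left out. The platform annotation, which can be old, gave 20380 probe sets 1 symbol, 691 several and 1555 none, and none was named from several symbols. Groups and sex came from the labels. One limma model (version 3.58.1, R 4.3.3) took in all 16 arrays (lmFit and eBayes, 4 groups plus sex, Benjamini-Hochberg adjustment over all 22626 probe sets, threshold 0.05), after the method had been tested on simulated data. Each array is a separate mouse. Pathway and marker lists used the probe set of highest mean per gene. The text names all members, up to 6 called genes per list by size of difference together with the partners and ligands of a member, and the 10 genes most like the CD3 chains. That profile was to include Lck and used the 3 CD3 chains. The members and the lists were chosen with earlier results of these data known. Promoters came from RefSeq's table for GRCm38.p6, in which 7 of the 10 member symbols had a window, and the array files name no build. Alternatives were quantile normalization, a common median, the dimmest 20% of probe sets left out, 1 probe set per gene, eBayes with trend and robust settings, array weights, no term for sex, a block for the labels' replicate numbers, a threshold of 0.01, the compared groups alone, each sex alone, each array left out, and 3 air arrays with markers of other tissues left out.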

Additional observations from a re-analysis of the deposited data

Results flagged for a closer look

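Each of the 14 probe sets was examined in each of the 4 groups, and in 2 of these 56 sets of 4 values 1 array lay far from the other 3 for the range of its group, which chance does in about 1 of 20. Cd3d on deficient ozone M2 read 7.07, against 7.75 to 7.89 on the other deficient ozone arrays. Il7r 1448576_at on deficient ozone M1 read 6.33, against 6.14 to 6.16 on the others, a gap of small size. Deficient ozone M2 also had the lowest Cd3g, Il7r 1448575_at and Cd28 1417597_at values of its group, at 6.25, 7.01 and 4.50. Its mean over the 3 CD3 genes was 7.07, against 7.59 to 7.81 on the other 3 arrays, and its mean over 13 B cell genes was 6.55, against 6.71 to 7.39. Without it the ozone difference in deficient mice was -0.16 for Cd3d (limma adjusted p = 0.431), 0.63 for Cd3g (0.00245), -0.59 for Il7r 1448575_at (0.0166) and -0.31 for Cd28 1417597_at (0.0949, a lost call).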

How the results depend on the processing

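Of 2688 values of single probe sets under the alternatives, 2590 kept their side of the threshold, 83 lost a call and 15 gained one. Of the 2590, 135 changed sign, all of them uncalled differences, and 0 called differences did. The number of T cell probe sets called for ozone in deficient mice was 4 and became 2 with 1 probe set per gene, with no sex term, at an adjusted p under 0.01 and without the 3 air arrays, and 0 in males alone. With each array left out in turn it lay between 2 and 4. For ozone in wildtype mice it was 5 and became 3 without the dimmest 20%, with 1 probe set per gene and at 0.01, and 1 in males alone, which is Cd4 1427779_a_at higher in ozone and none of the 5, with 4 to 5 when each array was left out. Averaged over genotypes it was 5 and became 3 without the dimmest 20% and 2 with 1 probe set per gene or in males alone, with 4 to 5 when each array was left out. Between genotypes in ozone it was 0, and 0 to 1 with each array left out. Between the sexes it was 2 and became 0 without the dimmest 20%, at 0.01 and without the 3 air arrays, and 1 with 1 probe set per gene, with 0 to 3 when each array was left out. With 1 probe set per gene and without the dimmest 20% fewer probe sets are tested, and in 1 sex fewer mice. Without the dimmest 20% both Cd28 probe sets and Icos 1421931_at were themselves left out. With 1 probe set per gene Il7r 1448576_at, Cd28 1417597_at and Icos 1421931_at were left out. No called T cell probe set that remained lost its call in either setting, so these smaller counts are not lost calls. The cause of the other changes was not tested.

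Deviations of same-numbered mice of different groups had correlations between -0.097 and 0.13, which gave no sign that the numbers pair the mice. With 2 mice of each sex per group these values cannot exclude a pairing. With the replicate block, 4 T cell probe sets were called for ozone in deficient mice and 5 in wildtype mice, and 0 between the genotypes in ozone, so that no count changed. Under it Cd3g differed by 0.46 in deficient mice with an adjusted p of 0.0217. Counts over all probe sets moved by over 1.5 times in several settings. For ozone in deficient mice 6639 became 3761 with 1 probe set per gene, 4072 at 0.01, 2688 in males alone and 3805 in females alone. For ozone in wildtype mice 8223 became 4546 with 1 probe set per gene, 5035 at 0.01 and 3022 in females alone. Averaged over genotypes 10920 became 6031 with 1 probe set per gene and 6857 in females alone. Between the sexes 2076 became 701 with 1 probe set per gene and 603 at 0.01, and with each array left out it was 1360 to 2338. Between genotypes in ozone 3 became 22 with array weights, 19 without the 3 air arrays, 13 with the compared groups alone, 6 with quantile normalization, 5 with the replicate block, 2 in settings that gave fewer, and 2 to 11 with each array left out. Between genotypes in air 2 became 1 with 1 probe set per gene and 2 to 3 with each array left out.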
